A study of Mus musculus with 6 samples.

Results

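The interleukin 1 receptor family was followed in PA6 cells, murine stromal cells on which ES cells are grown to differentiate, through IL1RL1 (the IL-33 receptor ST2) and 7 relatives. The members were taken by name, as all probes that the array annotation assigns to IL1RL1, IL1R1, IL1R2, IL1RAP, IL1RN, IL33, IL18R1 or IL18. They are 8 of the 30854 gene names on the array and 21 of its 45281 probes. The list was drawn up with the rise of IL1RL1 in FGF2 already known, so that for all 8 genes the comparison of FGF2 with -GFs or with BMP4 is given as a description, without a test. The comparison of BMP4 with -GFs is the one that was tested for them.

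Confluent PA6 monolayers were kept for 3 h in medium lacking serum and received no growth factor (-GFs), FGF2 at 20 ng/ml or BMP4 at 10 ng/ml according to the labels, while the methods on the co-cultures with ES cells state a lower dose of BMP4. The labels name no engineered allele, and the groups share the line, the medium and the time. Each group held 2 biological replicates with 1 array each, 6 arrays in all, and the comparison asks which early signals the stroma alone produces in response to either factor.

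Receptors of this family signal in pairs. A ligand binds its own receptor chain (IL-1 binds IL1R1, IL-33 binds IL1RL1, IL-18 binds IL18R1), and an accessory chain then joins, which is IL1RAP for IL-1 and IL-33. The shared intracellular domain recruits MYD88 and the IRAK kinases, which activate NF-kB and the MAP kinases. The family carries its own brakes, among them the decoy receptor IL1R2, the receptor antagonist IL1RN and a soluble form of IL1RL1 that captures IL-33. IL1RL1 is best known on mast cells, group 2 innate lymphoid cells and regulatory T cells, and was first described as a gene induced by serum in mouse fibroblasts.

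Since IL1RL1 is the member with the largest difference between groups, the stretches just before its starts are shown here. RefSeq lists starts at 2 separate places for mouse Il1rl1, which are known as alternative promoters of the gene, and the 250 bases before each are printed from the build GRCm38.p6, plus strand, 5′ to 3′. The first window is chr1:40429320-40429569 and the second is chr1:40439379-40439628. Capitals mark the letters AGATAA, a form of the site recognised by GATA factors, or their reverse complement. Other forms of the site were not searched and are not marked.
Il1rl1 window 1: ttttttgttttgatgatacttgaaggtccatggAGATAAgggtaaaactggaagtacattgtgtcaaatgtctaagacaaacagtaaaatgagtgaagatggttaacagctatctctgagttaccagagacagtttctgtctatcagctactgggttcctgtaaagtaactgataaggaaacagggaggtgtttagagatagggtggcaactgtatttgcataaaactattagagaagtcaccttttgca
Il1rl1 window 2: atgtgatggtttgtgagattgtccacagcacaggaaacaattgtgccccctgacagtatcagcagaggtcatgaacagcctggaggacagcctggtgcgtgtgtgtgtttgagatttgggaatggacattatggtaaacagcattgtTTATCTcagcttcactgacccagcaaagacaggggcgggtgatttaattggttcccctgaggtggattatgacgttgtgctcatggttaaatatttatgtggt

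Each Il1rl1 window held 1 match to AGATAA on either strand, a motif present in 9.99% of all 32841 windows of this length. Neither held the AP-1 motif TGANTCA (6.75% of all windows), the cyclic AMP response element TGACGTCA (1.55%) or the EGR motif GCGNGGGCG (4.7%), searched on both strands. The CArG box (1.47%) and the kappa B motif (7.25%) had no match there either. These matches describe letters in a window, and the arrays do not tell which of the starts was in use.

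In the whole series, the arrays were alike in brightness. Median intensities ranged from 153.4 to 168.1, and 15509 to 16459 probes per array were detected (detection p under 0.05, the share of negative control probes that are as bright). The lowest signal that counted as detected lay between 180.1 and 200.9 on each array. The stromal identity of the cells was checked with marker genes. All 12 stromal markers, among them COL1A1, PDGFRA, DCN and CXCL12, were detected on all arrays, with a summed intensity of 173903.7 to 197840 in -GFs, 145515.5 to 148023.3 in FGF2 and 160632.5 to 179195.1 in BMP4. Of 16 haematopoietic markers on the array 11 were detected on none of the arrays, PTPRC and the mast cell genes CPA3 and MS4A2 among them. LYZ2 and CD14 were detected on all arrays, CSF1R on 5, and FCER1G and the mast cell gene FCER1A on 1 each. The summed intensity of the 16 haematopoietic markers was 4183.7 to 4822.8 in -GFs, 4033 to 4121.8 in FGF2 and 3994.1 to 4256.8 in BMP4. Of 8 endothelial markers 6 were detected on no array, and of 7 epithelial markers likewise 6. The exceptions detected on all arrays were TEK and CDH1, and the endothelial marker KDR was detected on 4 arrays.

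Of the 21 member probes 13 were detected on at least 1 array, 7 on all arrays and 8 on none. The analysis kept a probe if 1 group or more had it detected on each of its arrays, which left 10 probes and 6 of the 8 genes, IL1R2 and IL18R1 dropping out. For 4 of these genes (IL1R1, IL1RAP, IL1RN and IL18) the representing probe was detected on all arrays, while IL1RL1 was retained through the FGF2 arrays alone. Arrays measure the RNA of the whole well, so that fewer cells expressing a gene and less RNA of it per cell cannot be told apart.

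IL1RL1 itself has 2 probes, and they differed. Probe ILMN_2757617 gave intensities of 177.9 and 188.3 in -GFs, 1504 and 3485.1 in FGF2, and 160.8 and 213.4 in BMP4 (replicates 1 and 2). Both FGF2 arrays lay far above all others, and the -GFs and BMP4 arrays overlapped. The signal was not detected on either -GFs array (detection p 0.12393 and 0.05128) and was detected on 1 of the 2 BMP4 arrays, replicate 2 (detection p 0.03526). After normalization the log2 level was 7.51 ± 0.14 in -GFs, 11.17 ± 0.89 in FGF2 and 7.55 ± 0.21 in BMP4 (SD, n = 2).

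With the -GFs arrays set to their lowest detected signal, where the probe itself was dimmer, IL1RL1 was at least 12.0-fold higher in FGF2 than in -GFs. The measured means gave a log2 fold change of 3.66 (SE 0.38), and the pairs of equal replicate number gave 3.14 and 4.19. By pair the bound was at least 7.93-fold and at least 18.2-fold, the FGF2 array of replicate 2 being the brighter by 1.25 on the log2 scale. The size depends on the background correction, as the bound became 34.1-fold with neqc, which subtracts an estimate of the background from each signal. Against BMP4 the difference was 3.62 (SE 0.38), with BMP4 detected on 1 array only. As this rise chose the gene, no test is attached to it. Between BMP4 and -GFs no fold is given, since of these arrays only BMP4 replicate 2 measured the gene.

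The second probe, ILMN_1243504, ranged from 112.8 to 128.7 over the 6 arrays and was detected on none, FGF2 included. The membrane receptor and the soluble form of IL1RL1 arise from transcripts with different ends, and which transcript either probe recognises was not analysed here. The rise thus rests on a single probe.

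**Figure D1:**
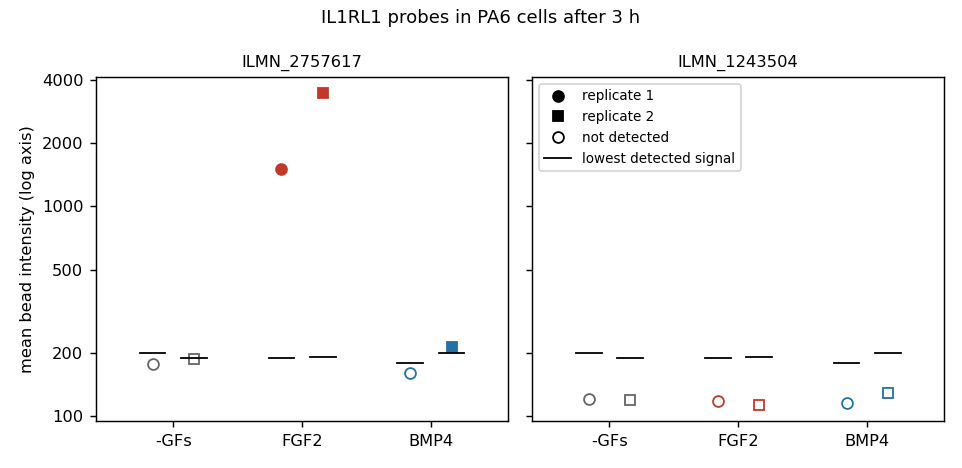
Intensities of the 2 probes of IL1RL1 on the 6 arrays (y axis: mean bead intensity, log axis; x axis: group). Filled symbols are detected, open symbols are not, circles and squares are replicates 1 and 2, and the short lines mark the lowest detected signal of each array. Probe ILMN_2757617 reached 1504 and 3485.1 in FGF2 and stayed near the lines elsewhere, whereas ILMN_1243504 stayed below the lines on all arrays.

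The remaining receptor chains showed no such difference. IL1R1, the signalling receptor of IL-1, was dim but detected on all arrays with probe ILMN_2711615, at 215.7 and 272.8 in -GFs, 248.5 and 285.5 in FGF2, and 201.1 and 227.6 in BMP4. The groups overlapped. Its log2 fold change was 0.18 in FGF2 (SE 0.21, 95% interval −0.31 to 0.68) and −0.15 in BMP4 (SE 0.21, interval −0.65 to 0.35, limma adjusted p = 0.999). The second IL1R1 probe was not detected on any array (114.9 to 149.9).

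IL18R1, the ligand-binding chain for IL-18, has 3 probes. One of them was detected on 1 array, replicate 2 of -GFs, and gave 170.5 and 204.5 in -GFs, 175.1 and 170.1 in FGF2, and 166.5 and 179.1 in BMP4. The other IL18R1 probes were not detected on any array. The decoy receptor IL1R2, which binds IL-1 without signalling, has a single probe that ranged from 107.7 to 141.5 and was detected on no array. No fold change is given for either gene, since no group had either of them detected on both of its arrays.

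IL1RAP, the accessory chain that IL-1 and IL-33 receptors share, was detected. Of its 6 probes 3 were detected on all arrays. The representing probe ILMN_2740464 gave 465.3 and 284.4 in -GFs, 441.7 and 328.7 in FGF2, and 403.2 and 265.1 in BMP4, so that the groups overlapped and replicate 1 exceeded replicate 2 in each. The log2 fold change was 0.17 in FGF2 (SE 0.27, 95% interval −0.48 to 0.82) and −0.06 in BMP4 (SE 0.27, interval −0.72 to 0.59, limma adjusted p = 0.999).

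The IL1RAP probes did not all run in parallel. ILMN_2740465 gave log2 fold changes of 0.18 in FGF2 and −0.04 in BMP4, close to the representing probe. ILMN_1243228 gave 0.32 in FGF2 and 0.26 in BMP4, with SE 0.30. ILMN_1233678, detected on both -GFs arrays and on 1 FGF2 array, gave −0.23 in FGF2 with SE 0.19 and was not detected in BMP4. No IL1RAP probe passed the threshold in BMP4 when every probe was tested on its own. A further probe, listed under an older name of Il1rap, was detected on no array.

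IL1RN, the secreted antagonist that occupies IL1R1 without activating it, gave bright signals on all 6 arrays. Probe ILMN_3072427 read 7170 and 2965.6 in -GFs, 6161.5 and 3407.5 in FGF2, and 5444.8 and 3509.6 in BMP4. Within each group replicate 1 was the brighter, and the groups overlapped throughout. The log2 fold change was 0.08 in FGF2 (SE 0.46, 95% interval −1.004 to 1.17) and 0.04 in BMP4 (SE 0.46, interval −1.05 to 1.13, limma adjusted p = 0.999). Of the other IL1RN probes ILMN_3151270 was detected on all arrays (237.9 to 499.3), a further one on 3 arrays and the last on none.

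The ligands were dim. IL33, an alarmin stored in the nucleus and the ligand of IL1RL1, has 1 probe, which read 349.7 and 263.5 in -GFs, 181.3 and 316.8 in FGF2, and 200.1 and 250 in BMP4. It was not detected on FGF2 replicate 1, and both BMP4 arrays lay below both -GFs arrays. The log2 fold change was −0.36 in BMP4 (SE 0.28, 95% interval −1.03 to 0.32, limma adjusted p = 0.999). In FGF2 it was −0.25 (SE 0.28, 95% interval −0.92 to 0.42), with pairs at −0.76 and 0.26.

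IL18, a cytokine that is cut to its active form by caspase-1, was detected on all arrays with probe ILMN_1236517. It read 314.6 and 293.8 in -GFs, 240.2 and 265.9 in FGF2, and 197.2 and 269.6 in BMP4, the -GFs arrays lying above all others. The log2 fold change was −0.32 in BMP4 (SE 0.18, 95% interval −0.75 to 0.11, limma adjusted p = 0.999) and −0.19 in FGF2 (SE 0.18, interval −0.62 to 0.24). A second IL18 probe was detected on no array.

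**Figure D2:**
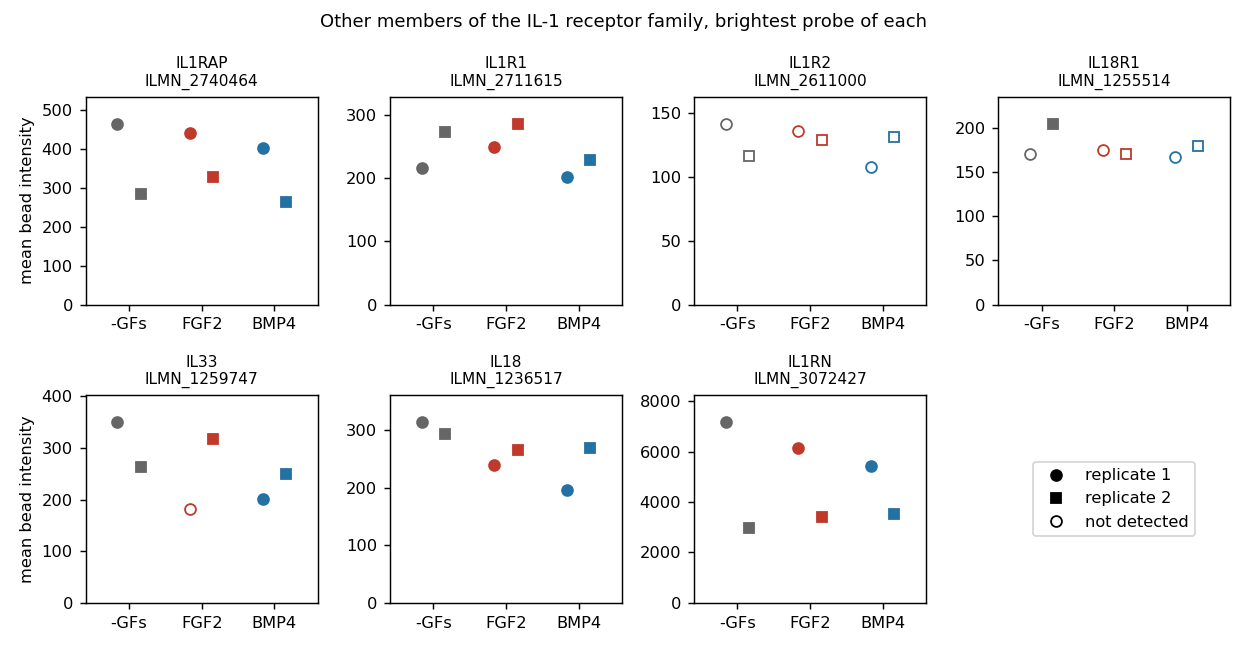
Intensities of 7 members other than IL1RL1, by the probe with the largest mean (y axes: mean bead intensity from 0, with a scale for each gene; x axes: group). Circles and squares are replicates 1 and 2 and open symbols were not detected. IL1RN and IL1RAP lay higher in replicate 1 than in replicate 2 in all 3 groups, for IL1RN 7170 against 2965.6 in -GFs.

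A gene was called if it changed by more than 1 on the log2 scale with an adjusted p under 0.1 in limma. In BMP4 0 of the 6 members in the fit were called, and 0 had an unadjusted p under 0.05, a level that 215 of all 11872 genes (1.81%) reached. IL1RL1 counts among the 6 but was undetected on all arrays of this comparison except BMP4 replicate 2, so that its p carries no weight. Over all 11872 genes the comparison of BMP4 with -GFs called 1 gene, 0.00842% of those tested. This gene was ID1, a BMP target outside the family, named after its value was seen, with a log2 fold change of 2.77 (SE 0.16, limma adjusted p = 0.00941). With the replicate number as a block, which removes the difference between replicate numbers, 10 genes or 0.0842% were called and again no member. With the block 1 of the 6 members had an unadjusted p under 0.05, IL18 with a limma p of 0.0338 and an adjusted p of 0.65. The 1.81% above belongs to the fit without the block, and the share of all genes with it was not counted. Without the block the 95% intervals reached 1.13 for IL1RN and −1.03 for IL33, past the threshold on the fold, whereas with it they ran from −0.25 to 0.33 for IL1RN and from −0.74 to 0.03 for IL33, inside it.

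In FGF2 1 of the 6 members, IL1RL1, was past the threshold, where 2.28% of all genes were called higher and 1.25% lower (3.53% in all, or 3.95% with the replicate block). As the list was chosen on this comparison, nothing is read from that count. The 5 other members tested had log2 fold changes between −0.25 and 0.18, and with single arrays left out between −0.70 (IL33) and 0.60 (IL1RN). The median absolute change over all genes was 0.24 in FGF2 and 0.11 in BMP4. Both comparisons share the -GFs arrays.

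**Figure D3:**
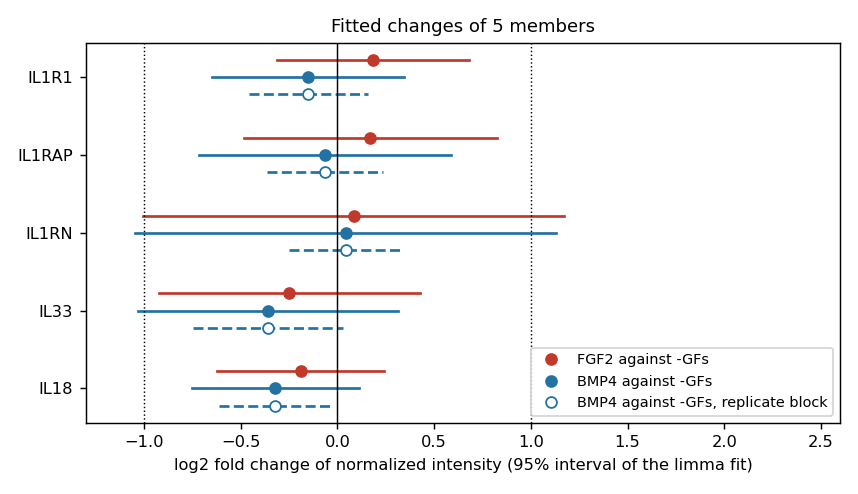
Fitted log2 fold changes of the 5 members other than IL1RL1 that entered the fit, with FGF2 against -GFs in red and BMP4 against -GFs in blue (x axis: log2 fold change of normalized intensity, bars: 95% interval of the limma fit, dashed bars and open points: with the replicate block, dotted lines: the threshold of 1 on the log2 scale). For IL1RN in BMP4 the interval runs from −1.05 to 1.13 without the block and from −0.25 to 0.33 with it.

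The difference between replicate numbers was larger than that between treatments for some members. This comparison was chosen after the values had been seen. With the replicate number as a block, IL1RN was 1.90-fold brighter in replicate 1 than in replicate 2 (log2 difference of replicate 2 from replicate 1 −0.93, SE 0.11, limma adjusted p = 1.91e-05), with −1.04 in -GFs, −0.85 in FGF2 and −0.89 in BMP4. IL1RAP followed in the same direction with −0.49 (SE 0.12, limma adjusted p = 0.00576), and −0.42, −0.36 and −0.68 within the groups. Such differences were common, as 28.8% of all genes passed the adjusted p in this comparison, whatever their fold, and the median absolute difference was 0.17.

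IL1R1 differed the other way, by 0.28 (SE 0.12, limma adjusted p = 0.0996). IL33 with 0.32 (adjusted p = 0.139) and IL18 with 0.24 (adjusted p = 0.149) did not pass. IL1RL1 was brighter in replicate 2 in each group, by 0.20 in -GFs, 1.25 in FGF2 and 0.29 in BMP4, although only the FGF2 arrays and 1 BMP4 array measured it. What replicate 1 and replicate 2 differed in is not given in the labels, and its part in these values was not tested.

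IL1RL1 lies on mouse chromosome 1 in a row of receptor genes of the same family. By RefSeq the order is Il1r2, Il1r1, Il1rl2, Il1rl1, Il18r1 and Il18rap, and these 6 are all the protein-coding genes in the stretch. Together they have 11 probes, of which 7 were detected on no array and 1, that of IL1R1, on all. The nearest neighbours of Il1rl1 gave no comparable signal in FGF2. IL1RL2, the receptor of the IL-36 cytokines on one side, read 176.4 and 210.5 in -GFs, 203.9 and 197.4 in FGF2, and 208.4 and 224.7 in BMP4. IL18R1 on the other side stayed undetected on both FGF2 arrays, as did IL18RAP, the accessory chain of the IL-18 receptor, with 2 probes.

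**Figure D4:**
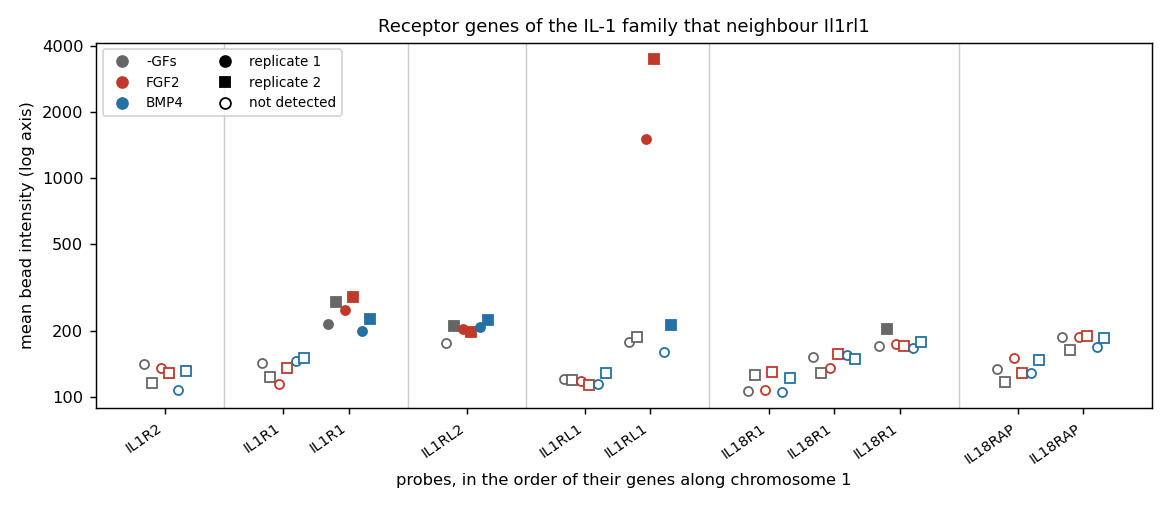
Intensities of all 11 probes of the receptor genes that neighbour Il1rl1, in the order of the genes along chromosome 1 (y axis: mean bead intensity, log axis). Colours are groups, circles and squares are replicates 1 and 2, open symbols were not detected. Apart from the IL1RL1 probe at 1504 and 3485.1 in FGF2, no probe of the stretch exceeded 285.5.

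The gene lists that follow were chosen with earlier results of these data known, so that their counts and p-values in FGF2 are descriptions. Other ligands and receptors of the family were mostly not detected. The list of 13 genes has 17 probes on the array, and for 8 of the genes, IL1A, IL1B and SIGIRR (an inhibitory receptor) among them, no probe was detected on any array. IL18BP, a soluble protein that binds IL-18, was the single gene detected on all arrays. Of the 2 genes tested none was called in FGF2, with log2 fold changes of −0.01 for IL18BP (limma adjusted p = 0.97) and 0.07 for IL1RL2 (adjusted p = 0.853).

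Transcripts of most proteins that carry the signal of the receptors inside the cell were detected, for 31 genes on all arrays. Of 35 genes, from MYD88 and the IRAK kinases to the NF-kB subunits, 34 were tested. Of these 1 was called higher and 0 lower in FGF2, where 2.28% of all genes were called higher and 1.25% lower. The median log2 fold change of the 34 was 0.13, beside −0.02 over all genes tested, and 1 of the 34, PELI3, was retained through FGF2 alone. The called gene was MAP2K3, a kinase that activates p38. It read 7178.6 and 7862.7 in -GFs, 13527.3 and 16374.2 in FGF2, and 5814.6 and 8489.1 in BMP4. Both FGF2 arrays exceeded all others, and the log2 fold change was 1.13 (SE 0.19, limma adjusted p = 0.0256). This call was lost with median scaling, where the change was 0.99, and when replicate 1 of -GFs or either FGF2 array was left out (0.96 without -GFs replicate 1, 1.28 without the first FGF2 array and 0.99 without the second). The largest changes that were not called were those of CHUK, the kinase IKK alpha, with 0.80 (SE 0.26, adjusted p = 0.129), and NFKB1, the p105 and p50 subunit, with 0.77 (SE 0.27, adjusted p = 0.145). With the replicate block the limma adjusted p was 0.00036 for CHUK and 0.0016 for NFKB1, and only the fold fell short of a call.

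Of 12 genes on the array for the processing of IL-1 family cytokines, such as inflammasome proteins, caspases and gasdermins, 7 were tested and 1 was called in FGF2, lower. Of all genes tested 1.25% were called lower. The median log2 fold change of the 7 was −0.07. TXNIP, which binds thioredoxin and can activate the NLRP3 inflammasome, read 22532.9 and 24076.8 in -GFs, 9554 and 9867.7 in FGF2, and 14980.2 and 15059.8 in BMP4. Its groups did not overlap, and the log2 fold change in FGF2 was −1.12 (SE 0.18, limma adjusted p = 0.0213). TXNIP lost the call when replicate 2 of -GFs was left out (−0.97) and when either FGF2 array was (−1.09 without the first and −1.16 without the second). In BMP4 it was −0.51 (SE 0.18, adjusted p = 0.999). GSDMDC1 (gasdermin D), at −0.76 (adjusted p = 0.0971), and the calpain CAPN1, at −0.55 (adjusted p = 0.14), were the largest changes without a call. With the replicate block their limma adjusted p was 0.000786 and 0.00702, and only the fold fell short of a call.

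Genes known as targets of NF-kB or IL-1 were represented by 23 tested genes, of which 5 were called higher in FGF2 and 0 lower. A positive log2 fold change was seen in 17 of the 23. The lowest was −0.73 for SAA3, named here for its direction, which was detected on 1 of the 2 FGF2 arrays and was not called. IRF1 (−0.48), CCL5 (−0.17) and TNFAIP3 (−0.16), named for the same reason, were detected on all arrays and not called. Of all genes tested 2.28% were called higher. As the list was chosen with earlier results of these data known, the count is a description. CSF3, ICAM1, LIF and MMP3 entered the fit through the FGF2 arrays alone, so that their direction is no support. Of the other 19 genes 4 were called higher and 0 lower, and 13 had a positive change. The median log2 fold change of these 19 was 0.49, beside −0.02 over all genes tested. With probes detected on all arrays 4 of 17 were called, all higher, where 242 of all 9707 genes were called higher. The 5 genes were CCL2 and CCL7, chemokines that attract monocytes, LCN2, a protein that binds iron-carrying siderophores, LIF, a cytokine that sustains mouse ES cells in culture, and TNFAIP2. Most of these genes are also targets of other pathways, and the list is no measure of NF-kB activity.

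CCL2 had the largest change of the list, with 462 and 758.3 in -GFs, 2249.8 and 3248.8 in FGF2, and 519.7 and 642 in BMP4. Its log2 fold change was 2.26 (SE 0.35, limma adjusted p = 0.0187). LCN2 read 1514.4 and 2165.3 in -GFs, 4352.9 and 9765.6 in FGF2, and 1252.1 and 2100.3 in BMP4, with a change of 1.94 (SE 0.44, adjusted p = 0.0531). As with IL1RL1, FGF2 replicate 2 was the brighter array for both.

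CCL7 changed by 1.44 (SE 0.22, limma adjusted p = 0.0185) and TNFAIP2 by 1.11 (SE 0.19, adjusted p = 0.0234). LIF read 188.8 and 144.5 in -GFs, where it was not detected, 386.4 and 483.9 in FGF2, and 175.6 and 160 in BMP4, where it was not detected either. LIF was thus at least 2.31-fold higher in FGF2 than in -GFs, or at least 4.93-fold with neqc. The fit called it on the measured means (limma adjusted p = 0.0147 for a difference of 1.44), which include the undetected -GFs signals, and the p does not belong to the bound. As LIF entered the fit through the FGF2 arrays alone, this p is no support for its rise. PTGES, the prostaglandin E synthase, with 0.99 (SE 0.22, adjusted p = 0.0531) and CSF1, the growth factor of macrophages, with 0.90 (SE 0.23, adjusted p = 0.068) stayed just under the fold that the call requires.

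The count of 5 target genes became 0 when FGF2 replicate 2 was left out and FGF2 was a single array, while the log2 fold changes remained at 1.97 for CCL2, 1.33 for LCN2, 1.26 for LIF, 1.16 for CCL7 and 0.96 for TNFAIP2, with limma adjusted p from 0.126 to 0.263. Over all genes the calls fell from 419 to 106 in that fit. Without -GFs replicate 1 the count was 3. TNFAIP2 was also lost with median scaling (0.94). In BMP4 0 genes of these 4 lists were called by limma.

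**Figure D5:**
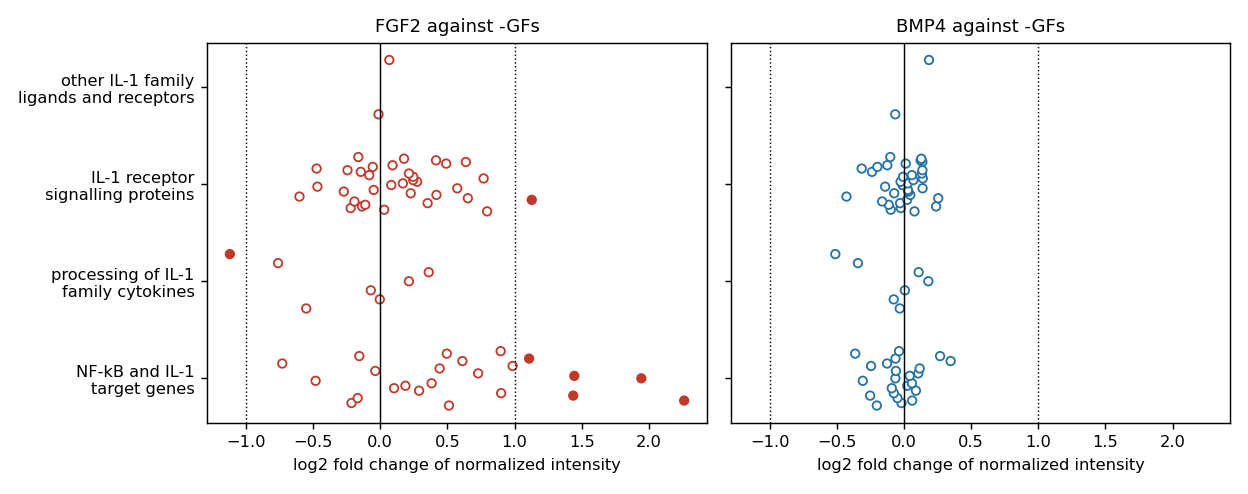
Log2 fold changes of the tested genes of the 4 lists around the family, in FGF2 (left) and BMP4 (right) against -GFs (x axes: log2 fold change of normalized intensity, 1 point per gene, vertical position within a list arbitrary). Filled points are called and dotted lines mark the threshold of 1. In FGF2 5 target genes lie above it, up to 2.26 for CCL2, and TXNIP lies at −1.12, whereas no point is filled for BMP4.

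The genes whose levels ran most like IL1RL1 over the 6 arrays, among those beyond 1 in FGF2, were PLAUR, TIMP1, C630022N07RIK, CXCL14 and HS6ST1. Pearson's r was between 0.995 for HS6ST1 and 0.998 for PLAUR. These values describe 6 arrays in 3 groups, in which the rise in FGF2 and the difference between its replicates set most of r. PLAUR, the receptor of urokinase, read 251.2 and 226.9 in -GFs, 571 and 911.8 in FGF2, and 205.3 and 237.8 in BMP4. TIMP1, an inhibitor of matrix metalloproteinases, read 15259.9 and 13730.7, 30767 and 39756.7, and 11307.5 and 15914.9 in the same order.

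The log2 fold change in FGF2 was 1.65 for PLAUR, 1.42 for TIMP1, 1.58 for C630022N07RIK, 2.12 for the chemokine CXCL14 and 2.25 for HS6ST1, which adds sulfate to heparan sulfate. CXCL14 was detected on 1 of the -GFs arrays and on no BMP4 array. All 5 genes were brighter in FGF2 replicate 2 than in replicate 1, as IL1RL1 was. With neqc in place of the spline 2 of the 5 genes, TIMP1 and C630022N07RIK, were again among the first 5.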

How the data were processed

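PA6 cells after 3 h in -GFs, FGF2 or BMP4 were analysed, 2 arrays per group, grouped by the labels. The authors deposited linear intensity values of the MouseWG-6 v2.0 BeadChip, averaged over the beads that carry a probe, without normalization between arrays, and with them the detection p-values. The submitters' processing notes name GenomeStudio 2011.01. A set of 9 columns without a heading and 6 leftover lines were not used. Genes carry the names of the array annotation.

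Intensities were normalized with a re-implementation of the cubic spline named in the methods (452 quantiles per array) in R 4.3.3 and converted to log2. A probe was kept where its detection p lay under 0.05 on each array of 1 group or more (16111 probes), and the probe with the highest mean stood for its gene (11872 genes). limma 3.58.1 was fitted on all 6 arrays with no block (3 degrees of freedom for the residuals), and p-values were adjusted by Benjamini-Hochberg over all genes tested. Calls required a log2 fold change beyond 1 and an adjusted p under 0.1. The procedure was tested on simulated data with errors independent between arrays and changes well beyond the threshold. That simulation held no replicate pairing and does not cover changes near the threshold. The number of arrays limits the precision. A fold against a group without detection is a bound, computed by raising the probe, on each array where it was dimmer, to the lowest signal detected there.

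The main fit held no pairing, and arrays were paired by replicate number only for the block and for the values given by pair. The pairing rests on the replicate numbers in the labels. The deviations of equally numbered arrays from their group means correlated across genes, with 0.602 between -GFs and FGF2, 0.741 between -GFs and BMP4, and 0.579 between FGF2 and BMP4. Adding this block leaves 2 residual degrees of freedom.

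The members and the gene lists were chosen with earlier results of these data known. The genes named are all members with their probes, of each list all called genes and the 2 tested genes with the largest change that were not called, the 5 genes most like IL1RL1, and defining markers. Exceptions are stated. No gene set test was run. Promoter windows and gene order come from RefSeq tables of GRCm38.p6, in which all 8 members matched, with 15 windows. Alternatives were other normalizations (quantile, neqc, median scaling), detection filters, treatments of several probes, the block, fits on 2 groups, limma's trend and robust options, the methods' t-test, no threshold on the fold, and leaving out each array.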

Additional observations from a re-analysis of the deposited data

How the results depend on the processing

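With 2 arrays per group, without the block a change near 1 on the log2 scale could pass unseen in members whose replicates differ, and dim members are limited by the background. No member was called in BMP4 under any alternative run, leaving out each array included. With the replicate block 10 genes were called in BMP4 in place of 1 (0.0842%), and the block changed no other call among the members and the 4 lists.

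IL1RL1 in FGF2 changed by 3.66, by 5.29 with neqc, and by 3.05 to 4.29 with single arrays left out. With probes detected on all arrays IL1RL1 was not retained and gave no value. For all genes in FGF2, 419 calls became 794 with neqc, 1402 with no threshold on the fold and 106 to 439 with an array left out, the fewest without FGF2 replicate 2 (106) and FGF2 replicate 1 (184). The split of 271 higher and 148 lower became 208 and 209 with median scaling. For all genes in BMP4 2 were called with probes detected on at least 1 array, with no detection filter and with the trend and robust options, 8 by the methods' t-test without adjustment, and 0 to 2 with an array left out.

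Of the lists in FGF2, signalling proteins gave 2 with neqc, 0 with median scaling, 4 with no threshold on the fold and 0 to 1 with an array left out, where the value was 1. Processing gave 2 with no threshold on the fold and 0 to 1 with an array left out. Target genes gave 3 by the unadjusted t-test, 8 with no threshold on the fold and 0 to 6 with an array left out. After Benjamini-Hochberg adjustment the methods' t-test called 0 genes in these 3 lists, in FGF2 and in BMP4 over all genes.

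The sign of small member changes in BMP4 turned under some alternatives, none of them called. IL1RN was −0.063 with median scaling and −0.034 with the mean of the probes. With an array left out, IL1RN ranged from −0.47 to 0.56, IL1RL1 from −0.11 to 0.19, IL1RAP from −0.40 to 0.28 and IL1R1 from −0.40 to 0.11, the signals of IL1RL1 being mostly undetected ones. In FGF2, where no test was made for the members, the ranges were −0.07 to 0.45 for IL1R1, −0.04 to 0.38 for IL1RAP, −0.43 to 0.60 for IL1RN and −0.70 to 0.19 for IL33. IL1RN was −0.0097 with median scaling. The cause was not tested.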
